A study of Desmophyllum pertusum with 36 samples.

Results

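Gene expression of Lophelia pertusa, a deep-sea stony coral, was compared in polyps held at pH 7.6, between week 8.5 and week 4.5 of the exposure, over all transcripts that could be measured. The comparison holds 6 of the 18 libraries of the study: 1 library of each of 3 genetically distinct colonies, numbered 1, 3 and 4, at each of the 2 weeks, paired by colony. Of 75743 transcripts, the 51137 with 10 or more counts in 3 or more of these 6 libraries were taken. All fragments in the comparison were at the lower of the 2 pH levels of the study, so that it follows time under low pH and holds no change of pH. The other level was pH 7.9, and its 6 libraries of the same weeks and colonies serve below as the comparison. Polyps of week 2 at both pH were sequenced as well. The time points are numbered 1 to 3 in the labels and were taken as weeks 2, 4.5 and 8.5, following the sequence of the design text.

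Lophelia pertusa builds reefs in deep, dark water and, unlike most tropical reef corals, holds no symbiotic algae, so that it lives on captured food alone. Stony corals form their aragonite skeleton in a thin fluid under the tissue whose pH they raise above that of sea water by pumping ions, a process that costs energy. Lower sea water pH steepens that gradient, and a time course separates early from later states of the tissue. A polyp holds feeding, stinging, digestive, reproductive and skeleton-forming cells, and in such bulk RNA fewer cells of a type and less RNA per cell cannot be told apart. The transcripts carry numbers and no gene names in the deposited table, so no function, pathway or marker list is attached to them, and the label polyp was not checked against marker genes.

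The 6 libraries held 20986345 to 25651213 counts, and the tested transcripts took 99.5 to 99.6% of them. The 2 lanes of each of the 6 libraries differed by no more than counting noise, with 0 transcripts called different and a chi-square per degree of freedom of 0.986 to 1.01. Among the 6 libraries, each was closest to the other library of its colony. Across the tested transcripts, Spearman's correlation between the weeks was 0.958 in colony 1, 0.894 in colony 3 and 0.945 in colony 4, and 0.830 to 0.893 between libraries of different colonies among the 6. At pH 7.9 the labels of colonies 1 and 3 did not follow this likeness. The week 4.5 library labelled colony 1 at pH 7.9 was closest to that of colony 3 at pH 7.6 (0.963), and the one labelled colony 3 at pH 7.9 was closest to that of colony 1 at pH 7.6 (0.967). Both weeks of each label lay on the same side, so pairs of weeks were formed within a colony label and pH and never across pH.

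The first question was which transcripts changed between weeks 4.5 and 8.5 under low pH. Over this interval 64 transcripts rose and 193 fell, called at an adjusted p below 0.05 by the quasi-likelihood test of edgeR over 51137 transcripts. These are 0.125% and 0.377% of all tested, 0.503% together. Falls thus outnumbered rises by 193 to 64. The typical called change was large in both directions. The median log2 fold change was 2.68 among those that rose (middle 50%, 2.10 to 3.86) and -2.43 among those that fell (middle 50%, -2.89 to -2.09), against a median of 0.01 over all tested. Every one of the 257 had changed at least 2-fold, and 51 of the 64 and 158 of the 193 at least 4-fold. A simulation of this fit recovered 62 of 100 simulated 4-fold changes but 0 of 100 simulated 2-fold changes. The changed transcripts were drawn from those at 1 log2 CPM (counts scaled to library size) or above. In this fit 2-fold changes were thus not detectable, and changes at lower count levels were not simulated.

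**Figure D1:**
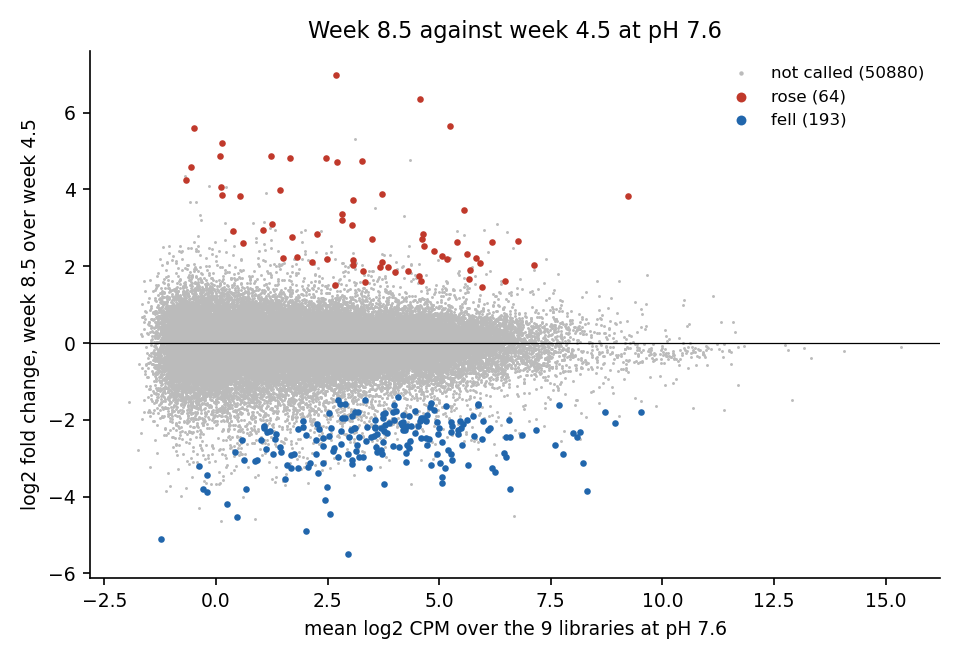
Log2 fold change of week 8.5 over week 4.5 at pH 7.6 (y axis) against the mean log2 CPM (counts scaled to library size) over the 9 libraries at pH 7.6 (x axis), with 1 point for each of 51137 transcripts. The 64 that rose are red, the 193 that fell are blue, and falls outnumber rises at low and at high count levels.

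Most of the called transcripts were measured in all 6 libraries. Of the 64 that rose, 43 had 10 or more counts in each of the 6, and so had 157 of the 193 that fell. These are 67.2% and 81.3%, against 78.6% of all tested, so the share was lower among those that rose. Another 9 of those that rose reached that minimum only in the week 8.5 libraries, and 10 of those that fell only in the week 4.5 libraries. These could enter the test only through the week in which they were high. Of all 51137 tested, 139 entered only through week 8.5 and 202 only through week 4.5. Calls were more frequent among transcripts with more counts. CPM, counts scaled to library size, are not corrected for transcript length. Below 0 log2 CPM, 8 of 8449 transcripts were called (0.0947%). From 2 to 4 log2 CPM it was 93 of 15558 (0.598%), and at 6 or above 28 of 2143 (1.31%). In the uppermost class 23 fell and 5 rose. Falls outnumbered rises in the lower classes too, by 5 to 3 in the lowest.

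The number of calls moved with the libraries fitted, the block and the scaling. In the 6 libraries alone edgeR called 166 higher and 674 lower, with all 257 among them, and with the 12 libraries of both pH 250 higher and 960 lower, with 244 of the 257. With all 18 libraries it called 5 higher and 7 lower, but that fit changed the block as well and joined the libraries of both pH by colony labels that, for colonies 1 and 3 at pH 7.9, did not follow the likeness of the libraries. With the 9 libraries and library totals in place of trimmed-mean scaling it called 8 higher and 20 lower. The 3 week 2 libraries at pH 7.6, which are part of the 9-library fit, held 45.5 to 81.8% of their counts in the first lane, against 50 to 50.3% in the 6 libraries compared. Between their lanes, 0, 13 and 11 transcripts were called different in colonies 1, 3 and 4. The chi-square per degree of freedom was 1.02, 1.07 and 1.31. Without these libraries the calls were the 166 higher and 674 lower given above for the 6 alone. Whether the lane differences played a part in this was not tested.

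Along the rise, Transcript_36537 showed the largest change of those named. It stood at 0.254, 0.138 and 0 CPM in colonies 1, 3 and 4 at week 4.5, which are 6, 3 and 0 counts. At week 8.5 it stood at 15.2, 22.1 and 14.9 CPM, or 349, 542 and 375 counts. It was nearly absent in every colony at week 4.5 and present in every colony at week 8.5. It is 1 of the 9 risen transcripts that could enter the test only through the week 8.5 libraries, so it had to differ, and the lack of overlap is no support of its own. Its log2 fold change was 6.99 ± 0.78 (SE, edgeR adjusted p = 0.0113), from 0.131 ± 0.127 to 17.4 ± 4.09 CPM (SD, n = 3). At week 2 it was at 0.493, 0.834 and 2.24 CPM, between the other weeks in each colony. At pH 7.9 it had 0 counts in all 3 libraries of week 4.5 and 222, 2 and 110 counts at week 8.5 in colonies 1, 3 and 4. It passed the test there too (edgeR adjusted p = 0.00615), as the 1 of the 64 that did, though it was barely found in the library labelled colony 3.

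Transcript_2635 had the highest count level among the other transcripts that rose. It went from 156 to 611 CPM in colony 1, from 34.7 to 1091 CPM in colony 3 and from 92.6 to 2289.8 CPM in colony 4. The lowest week 8.5 library lay above the highest of week 4.5, and the colonies took a different order at the 2 weeks. The log2 fold change was 3.84 ± 0.57 (SE, edgeR adjusted p = 0.0274), and without colony 4 it was 3.38 with an adjusted p of 0.092. At week 2 it had been at 303, 268 and 488 CPM, so that week 4.5 was the lowest of the 3 weeks in each colony. At pH 7.9 it was far lower at both weeks, with 2.72, 1.28 and 3.78 CPM at week 4.5 and 33.0, 1.84 and 44.6 CPM at week 8.5. Its change at pH 7.9 did not pass the test (log2 fold change 2.79 ± 0.70, edgeR adjusted p = 0.144).

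Transcript_3610 showed the largest fall of those named. It went from 13.6 to 0.0870 CPM in colony 1, from 6.60 to 0.327 CPM in colony 3 and from 0.812 to 0.0398 CPM in colony 4. In counts these were 321, 143 and 20 at week 4.5 and 2, 8 and 1 at week 8.5, so the later level rests on 11 counts in all. It is 1 of the 10 fallen transcripts that could enter the test only through the week 4.5 libraries, so the groups could not overlap in counts of 10 or more. Colony 4 began far below the other colonies. The log2 fold change was -5.49 ± 0.62 (SE, edgeR adjusted p = 0.0113). At pH 7.9 it was lower at week 8.5 in each pair as well, at 9.90, 20 and 3.97 CPM at week 4.5 and 0.626, 2.82 and 0.0480 CPM at week 8.5. That change passed the test (log2 fold change -3.75 ± 0.50, edgeR adjusted p = 0.00884).

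Transcript_5163 had the highest count level among the other transcripts that fell. It stood at 82.5, 994 and 305 CPM in colonies 1, 3 and 4 at week 4.5 and at 28.5, 325 and 68.5 CPM at week 8.5. The groups overlapped, since colony 3 at week 8.5 was above colonies 1 and 4 at week 4.5. Within each colony the later library was lower, which only the pairing by colony shows. The log2 fold change was -1.79 ± 0.33 (SE, edgeR adjusted p = 0.0496). The call is close to the threshold, and the adjusted p was 0.0517 with the size factors of DESeq2, 0.273 without colony 1 and 0.394 without colony 4. At pH 7.9 the transcript fell from 2373, 434 and 1085 CPM to 664, 91.5 and 161 CPM (log2 fold change -2.32 ± 0.23, edgeR adjusted p = 0.00423).

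**Figure D2:**
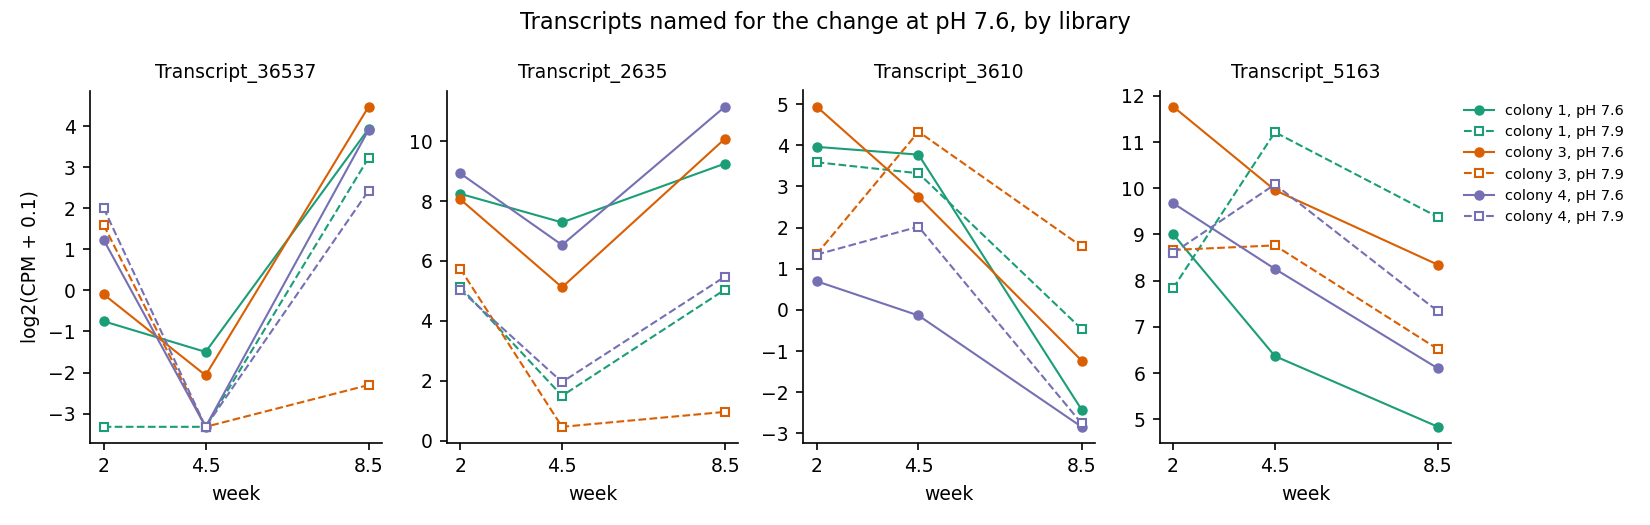
Level of the 4 named transcripts as log2 of CPM plus 0.1 (y axis) at weeks 2, 4.5 and 8.5 (x axis), with 1 line for each colony and pH, solid for pH 7.6 and dashed for pH 7.9. Between weeks 4.5 and 8.5 the 3 solid lines go up for Transcript_36537 and Transcript_2635 and down for Transcript_3610 and Transcript_5163. A change of like sign in the 3 colonies was a condition for naming these transcripts.

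Not all abundant RNA moved. Transcript_36311, the transcript with the most counts, took 4.46, 3.69 and 4.55% of the counts at week 4.5 and 4.21, 5.14 and 3.83% at week 8.5 in colonies 1, 3 and 4. It was lower in colonies 1 and 4 and higher in colony 3. Its log2 fold change was -0.10 ± 0.52 (SE, edgeR adjusted p = 0.965).

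The pairs of libraries differed by colony in how much they changed. With 1 library per colony and week there is no test within a colony, and changes are given as log2 ratios of CPM with 2 counts added in proportion to library size. In colony 1, 1913 transcripts were at least 2-fold higher and 3532 at least 2-fold lower at week 8.5, which are 3.74% and 6.91% of all tested. In colony 4 it was 2811 and 3928 (5.5% and 7.68%). In colony 3 it was 6152 and 8969 (12% and 17.5%). Colony 3 thus had 15121 transcripts past 2-fold in either direction, against 5445 in colony 1 and 6739 in colony 4. The spread of all changes was wider there too, with an SD of 1.05 log2 units against 0.66 and 0.76. The week 8.5 library of colony 3 at pH 7.6 had the lowest nearest likeness of the 12 libraries (Spearman's correlation 0.918). It also held counts in the fewest transcripts of all 18 (64559). Whether the wider change belongs to the colony or to this library was not tested. At pH 7.9 the library pair labelled colony 3 had 7334 transcripts past 2-fold, close to the 7112 of colony 1 and above the 5390 of colony 4. At that pH the pair labelled colony 3 did not stand apart in this way, though the difference between the pH levels was not tested.

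In each of the 3 colonies more transcripts were 2-fold lower than 2-fold higher. This held with DESeq2 size factors (1881 higher and 3569 lower in colony 1, 6322 and 8813 in colony 3, 2830 and 3903 in colony 4). With library totals the counts were 2663 and 2787, 6580 and 8691, and 3291 and 3628, so that the excess nearly vanished in colony 1. That scaling moved the median change of all transcripts in colony 1 from 0 to 0.12. At least 2-fold higher in all 3 colonies were 228 transcripts (0.446%), and at least 2-fold lower in all 3 were 876 (1.71%). With library totals these were 305 and 774. In 2 or more colonies, 1572 were at least 2-fold higher (3.07%) and 2860 at least 2-fold lower (5.59%). The pH 7.9 pairs of the same weeks gave 1421 (2.78%) and 1882 (3.68%). Singly, the pairs at pH 7.9 had 4021 higher and 3091 lower in colony 1, 3576 and 3758 in colony 3, and 2629 and 2761 in colony 4. The pair labelled colony 1 thus had more rises there, and the others were nearly even.

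The colonies shared part of their change. Across the 51137 transcripts, Pearson's correlation of the change was 0.27 between colonies 1 and 3, 0.377 between colonies 1 and 4 and 0.36 between colonies 3 and 4. Spearman's rho was 0.215, 0.273 and 0.332. The pairs of colonies come from separate libraries, but transcripts are not independent and the changes of all 3 share the same sampling weeks. Among the 34524 transcripts at 1 log2 CPM or above, Pearson's correlation was 0.332, 0.476 and 0.434 in the same order. Over all tested transcripts, 9741 were higher in all 3 colonies (19%) and 9975 lower in all 3 (19.5%). All 3 week 8.5 libraries lay above all 3 of week 4.5 for 3299 transcripts (6.45%) and below them for 3812 (7.45%). Of the called transcripts, 64 of 64 and 192 of 193 changed alike in the 3 colonies, and 58 of 64 and 162 of 193 were separated in this way, as the test favours such transcripts.

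**Figure D3:**
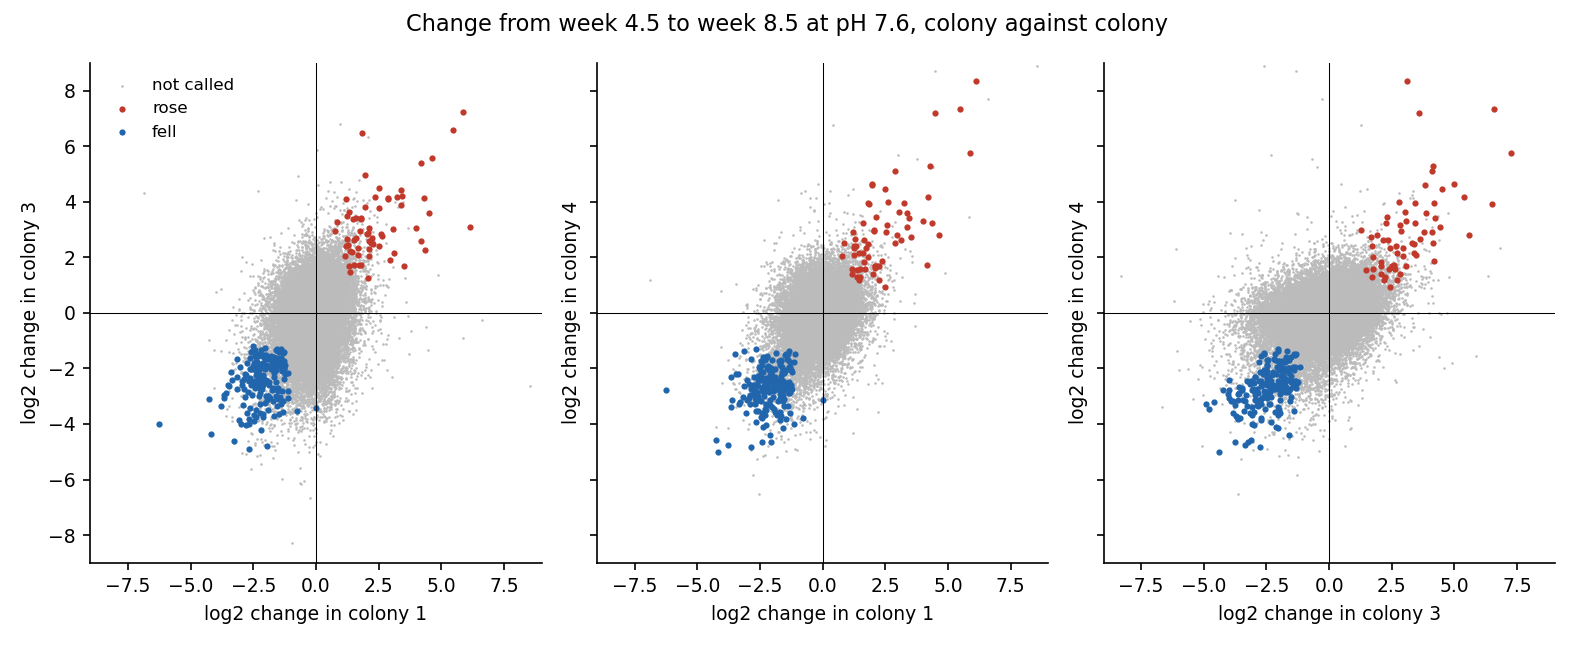
Log2 change from week 4.5 to week 8.5 at pH 7.6 in 1 colony against another, for colonies 1 and 3, 1 and 4, and 3 and 4, with 1 point for each of 51137 transcripts. The cloud of transcripts not called (grey) is widest along the axis of colony 3, and the 64 that rose (red) and 192 of the 193 that fell (blue) lie where the colonies changed alike.

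Within the called transcripts the sizes differed by colony. Among the 64 that rose, the median log2 change was 2.10 in colony 1, 2.90 in colony 3 and 2.62 in colony 4. Colony 3 had the largest rise for 39 of them, colony 4 for 17 and colony 1 for 8. Among the 193 that fell, the median change was -2.10, -2.33 and -2.63 in colonies 1, 3 and 4. There colony 4 had the largest fall for 104 transcripts, colony 3 for 56 and colony 1 for 33. Colony 1 had the smallest change in 33 of the 64 and in 104 of the 193. These values describe transcripts chosen for their change in the same libraries. Leaving out a colony moved the count of calls strongly. Without colony 3 edgeR called 150 higher and 439 lower, among them 224 of the 257. Without colony 1 it called 12 and 29, with 30 of the 257, and without colony 4 it called 12 and 15, with 21 of the 257.

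Few transcripts were present at one week and without counts at the other. Of all 75743 transcripts, those with at least 100 counts in the week 8.5 library and 0 in the week 4.5 library of the same colony were 2 in colony 1, 2 in colony 3 and 3 in colony 4. In the opposite direction there were 1, 2 and 0.

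The same interval was then measured at pH 7.9, in libraries that took no part in choosing the 257 transcripts. There, 9 transcripts were higher and 373 lower at week 8.5 (0.0176% and 0.729% of 51137, and 0.747% together, edgeR adjusted p below 0.05 in a fit of the 12 libraries with a block for each colony and pH). Among the calls, falls outnumbered rises at this pH as well. The 2-fold counts given above did not show this in the pH 7.9 pair labelled colony 1. Of the 193 transcripts that fell at pH 7.6, 184 had a negative fold change at pH 7.9 (95.3%), where 52.7% of all tested did. Their median log2 fold change at pH 7.9 was -1.70, and 97 of the 193 were called there too. Of the 64 that rose, 53 had a positive fold change at pH 7.9 (82.8%, against 47.3% of all tested). Their median there was 0.65, and 1 of the 64 was called. Called in both and in the same direction were 98 transcripts, which is 38.1% of the 257 and 25.7% of the 382. None of the 257 was called in the opposite direction at pH 7.9. Of all 51137 tested, only 7 were called there against the sign of their change at pH 7.6, so a count of 0 shows little.

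The median fall was thus -2.43 at pH 7.6 and -1.70 at pH 7.9, and the median rise 2.68 and 0.65. Because the 257 were chosen for a large change at pH 7.6, a smaller change elsewhere is to be read with that choice in view. Seen from the other side, the 373 transcripts chosen for their fall at pH 7.9 had a median log2 fold change of -1.88 there and of -1.90 at pH 7.6, and 98.1% of them were lower at pH 7.6, where 49.5% of all tested were. The median at pH 7.9 is set in part by that choice, so the 2 close medians do not show changes of like size. All week 8.5 libraries share their sampling occasion, and whatever else differed between the occasions cannot be told apart from time.

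By colony, the pH 7.9 libraries differed in the transcripts that had risen at pH 7.6. The 64 had a median log2 change of 1.02 in the pair labelled colony 1 and of 0.70 in colony 4, with 55 and 54 of the 64 higher. These are 85.9% and 84.4%, against 51.1% and 50.2% of all tested. In the pair labelled colony 3 the median was -0.19, with 26 of 64 higher (40.6%, against 49.1% of all tested). The 193 that fell had medians of -1.77, -1.69 and -1.34 at pH 7.9 in colonies 1, 3 and 4, with 170, 188 and 169 of them lower. Of all tested transcripts, 48.9%, 50.7% and 49.8% were lower in these pairs. Most of the 193 were thus lower in each pH 7.9 pair, and most of the 64 higher in those of colonies 1 and 4. Colony 4, whose 4 libraries all lay closest to another library of colony 4, had both.

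The week 2 libraries place these changes on a longer scale. Levels were set against the mean of the 6 libraries for each transcript. The 64 that rose had a median of -0.48, -0.17 and -0.03 log2 units at week 2 in colonies 1, 3 and 4 at pH 7.6. They had -1.26, -1.38 and -1.21 at week 4.5, and 0.80, 1.79 and 1.45 at week 8.5. Week 2 thus lay between the weeks compared. The 193 that fell stood at 1.19, 1.92 and 1.01 at week 2, at 0.55, 1.60 and 1.46 at week 4.5, and at -1.58, -0.78 and -1.18 at week 8.5. In them week 2 was on the side of week 4.5 in each colony, above it in colonies 1 and 3 and below it in colony 4. The values of weeks 4.5 and 8.5 are those that chose the transcripts, and those of week 2 entered the fit through the spread, the colony terms and the scaling.

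**Figure D4:**
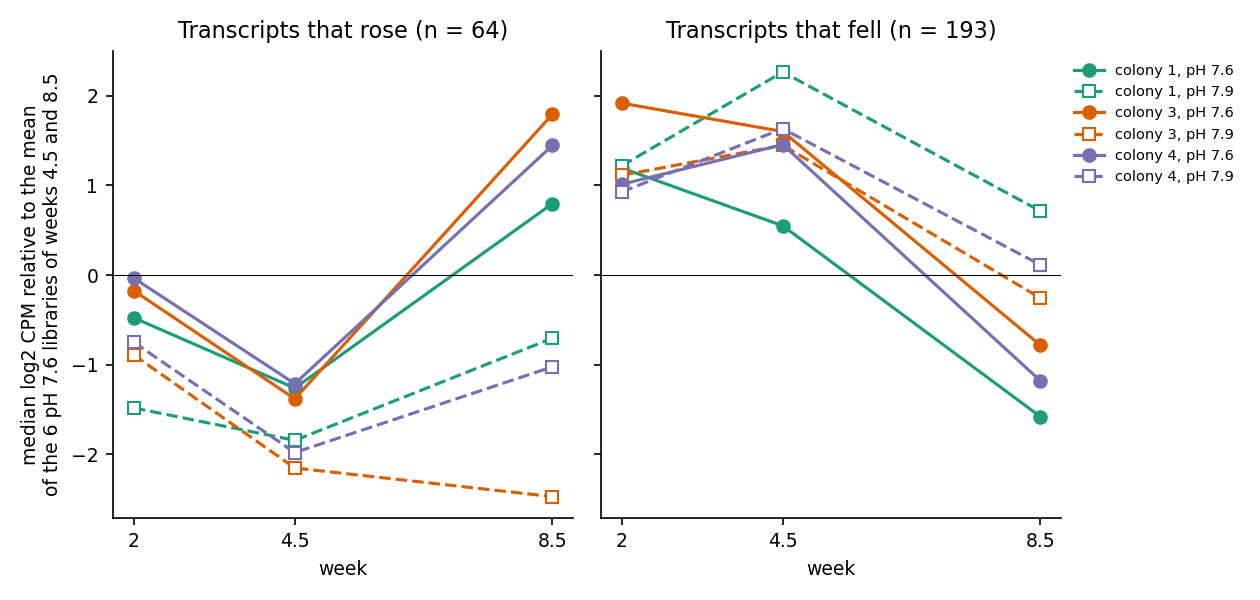
Median log2 CPM of the 64 transcripts that rose (left) and the 193 that fell (right), relative to each transcript's mean over the 6 pH 7.6 libraries of weeks 4.5 and 8.5 (y axis), at weeks 2, 4.5 and 8.5 (x axis). Lines are colonies, solid at pH 7.6 and dashed at pH 7.9, and the dashed line of colony 3 on the left is the line that does not go up after week 4.5.

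Most of the transcripts that rose stood higher at pH 7.6 than at pH 7.9 at the earlier weeks as well. At week 2, 55 of the 64 had a higher mean log2 CPM at pH 7.6 than at pH 7.9 (85.9%, against 48.5% of all tested), with a median difference of 0.83. At week 4.5 it was 54 of 64 (84.4%, against 49.2%), with a median difference of 0.51, although these transcripts had been chosen to be low in the pH 7.6 libraries of that week. The 193 that fell did not stand lower at pH 7.6 at week 2, where 78 of them were lower (40.4%, against 51.5% of all tested). At week 4.5 it was 145 of 193 (75.1%, against 50.8%), with a median difference of -0.50. The week 8.5 values are set in part by the choice of transcripts and are not compared. Some pH 7.9 libraries in these means had colony labels that did not follow their likeness. An exchange of labels between colonies within a pH would not change the means, and any other mislabelling was not tested.

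Finally, the change itself was compared between the pH levels. The change from week 4.5 to 8.5 was more positive at pH 7.6 than at pH 7.9 for 6 of 51137 transcripts (0.0117%) and more negative for 0 (0%), by edgeR's test of the interaction at an adjusted p below 0.05. At an unadjusted p below 0.05 there were 3357 and 2894. DESeq2 called 183 and 121 and limma-voom 4 and 0. In all 6 transcripts the 3 changes at pH 7.6 lay above the 3 changes at pH 7.9, as the test favours such transcripts. The share of all tested transcripts separated in this way was not counted, so the separation is no support of its own. Of the 6, 4 were among the 64 that had risen, as were 0.125% of all tested. Both tests use the same pH 7.6 libraries, so this overlap is no support of its own. Without colony 1, 3 and 4 edgeR called 3, 0 and 0 transcripts, with 1 of the 6 among the first 3. In these fits the log2 difference was 4.10 to 5.41 for Transcript_13988 and 3.08 to 3.18 for Transcript_77176. Neither passed the test in any of them (edgeR adjusted p from 0.127 to 0.621 and from 0.130 to 0.621). A simulation of this test recovered 48 of 100 differences of 4-fold and 0 of 100 of 2-fold, again among transcripts at 1 log2 CPM or above. A low count of calls therefore does not show that the changes were alike. The same simulation made 7 false calls beside its 48 recovered differences, so some of the 6 may be false.

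Transcript_13988 showed the largest difference of the 6. At pH 7.6 it rose from 1.06, 0.277 and 1.18 CPM in colonies 1, 3 and 4 to 67.1, 55.6 and 68.3 CPM. At pH 7.9 it stood at 1.41, 0.277 and 0.897 CPM at week 4.5 and at 3.80, 0.512 and 4.28 CPM at week 8.5. The 3 late libraries at pH 7.6 were close to each other and far above every other library of these weeks. The change was 6.32 ± 0.37 at pH 7.6 and 1.63 ± 0.38 at pH 7.9 on the log2 scale, a difference of 4.69 ± 0.53 (SE, edgeR adjusted p = 0.0435). With limma-voom the adjusted p of the difference was 0.051.

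Transcript_77176 had the highest count level among the other 5, and changed in opposite directions. At pH 7.6 it went from 36.2, 56.0 and 40.3 CPM in colonies 1, 3 and 4 to 140.3, 172 and 80.0 CPM. At pH 7.9 it went from 182, 34.2 and 85.5 CPM to 75.6, 13.0 and 18.8 CPM. Each of the 3 pairs at pH 7.6 was higher at week 8.5 and each of the 3 at pH 7.9 lower, although the levels of the 2 pH overlapped. The change was 1.52 ± 0.25 at pH 7.6 and -1.65 ± 0.26 at pH 7.9 on the log2 scale, with a difference of 3.17 ± 0.36 (SE, edgeR adjusted p = 0.0435). Each of these changes passed the test in the 12 libraries (edgeR adjusted p = 0.013 and 0.0161). In the 9 libraries at pH 7.6 alone its change was 1.54 ± 0.36 and did not pass the test (edgeR adjusted p = 0.105).

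No transcript passed the test with a more negative change at pH 7.6, and 2 are given by their values. They had the smallest p among transcripts at 1 log2 CPM or above whose changes at pH 7.6 all lay below those at pH 7.9. As this separation was a condition, it is no support of its own. Transcript_30865 stood at 34.9, 79.6 and 34.4 CPM at week 4.5 and at 4.78, 9.60 and 5.06 CPM at week 8.5 at pH 7.6. At pH 7.9 these were 171, 65.1 and 98.0 CPM and 81.4, 37.6 and 47.6 CPM. The transcript was lower at week 8.5 in each of the 6 pairs, by more in those at pH 7.6. The log2 changes were -2.90 ± 0.20 at pH 7.6 and -1.01 ± 0.19 at pH 7.9, with a difference of -1.89 ± 0.27 (SE, edgeR adjusted p = 0.123).

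Transcript_7135 went the same way. It stood at 479, 938 and 339 CPM at week 4.5 and at 34.6, 92.4 and 12.6 CPM at week 8.5 at pH 7.6. At pH 7.9 it stood at 394, 435 and 268 CPM and at 134, 181 and 108 CPM. All late libraries were below all early ones at each pH, and the 3 late libraries at pH 7.6 were below the 3 at pH 7.9. The difference of the log2 changes was -2.54 ± 0.36 (SE, edgeR adjusted p = 0.123). DESeq2 called both differences, with adjusted p-values of 1.39e-05 for Transcript_30865 and 3.54e-07 for Transcript_7135.

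**Figure D5:**
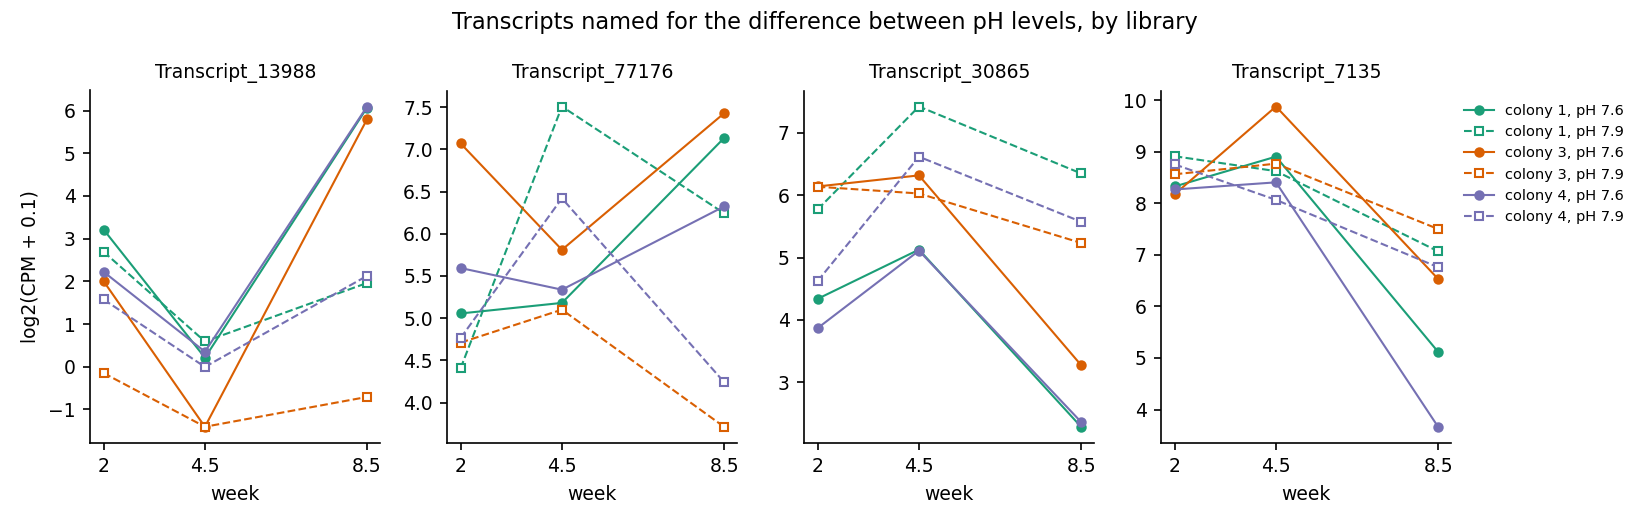
Level of the 4 transcripts named for the difference between the pH levels as log2 of CPM plus 0.1 (y axis) at weeks 2, 4.5 and 8.5 (x axis), with 1 line for each colony and pH, solid for pH 7.6 and dashed for pH 7.9. After week 4.5 the solid lines of Transcript_13988 go up by more than the dashed ones. Those of Transcript_77176 go up where the dashed ones go down, and those of Transcript_30865 and Transcript_7135 go down by more. Such separation of the changes by pH was a condition for naming these transcripts.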

How the data were processed

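The deposited table holds raw read counts, 1 column per library and lane. Total RNA was extracted with a Qiagen kit and sequenced single-end on an Illumina HiSeq, per the labels' protocols. The submitters' processing notes name Trimmomatic 0.36, cutadapt 1.15, FastQC and DESeq2. The aligner, counter and transcript set were not given in the sources used here, so reads of near-identical transcripts or alleles may have been split or dropped. The 36 lane columns were summed to 18 libraries. The rule left 51137 transcripts and 0.432% of the counts of the 6 libraries outside it.

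Tests were edgeR 4.0.16 quasi-likelihood F tests (R 4.3.3, trimmed mean of M values, TMM, Benjamini-Hochberg adjustment over 51137 transcripts). The week change at pH 7.6 was fitted to the 9 libraries at pH 7.6 with week and colony, and pH 7.9 and the interaction to 12 libraries with a block for each colony and pH. Both left 4 residual degrees of freedom. SE is the fold change on the log2 scale over the root of F. Colony was the replicate block because fragments of the same colony were sampled at each week. Deviations of its 2 libraries from the week means correlated at 0.56 to 0.707 at pH 7.6 and 0.597 to 0.719 at pH 7.9. CPM of single transcripts used TMM over all 18 libraries. DESeq2 1.42.0 and limma 3.58.1 were alternatives. The fits were tested on simulated data, with 3 and 7 false calls of 51137.

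Among called transcripts at 1 log2 CPM or above and alike in sign in all 3 pairs, the largest change and then the highest level were named in each direction, at most 2 each. Where none was called, the smallest p decided. Members and rules were chosen with earlier results of these data known. Nothing in the labels says whether fragments stood in separate tanks, so p-values measure only the spread between these libraries, and counting intervals are not given.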

Additional observations from a re-analysis of the deposited data

Results flagged for a closer look

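The change from week 4.5 to week 8.5 differed between pH 7.6 and pH 7.9 by edgeR's interaction test in 6 transcripts. The 2 named ones had a difference, pH 7.6 minus pH 7.9, of 4.69 log2 units for Transcript_13988 and of 3.17 for Transcript_77176, and both were positive under each of the 10 alternatives. They passed an adjusted p of 0.05 in 5 and 6 of these 10. Groups of 3 libraries are too small for a check of single outlying libraries, so none was made.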

How the results depend on the processing

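The 257 calls at pH 7.6 stayed within 1.5 times under 4 of 14 alternatives. They became 1403 with DESeq2 (256 of the 257 among them), 822 with no filter, 28 with library totals, 840 in the 6 libraries alone, 1210 in 12 libraries and 12 in all 18. Leaving out a colony gave 27 to 589. The 6 differences between pH levels became 304 with DESeq2 and 47 with no filter (32 higher and 15 lower), and 0 to 3 without a colony. The 382 calls at pH 7.9 became 1042 with DESeq2 (175 higher and 867 lower), 794 with no filter, and 0 to 139 without a colony. Without the replicate block each of the 3 counts was 0, with 2823, 2527 and 2227 transcripts at an unadjusted p below 0.05. The cause was not tested, but the common dispersion at pH 7.6 was 0.115 in the main fit, 0.0835 in the 6 libraries alone, 0.0691 in 12, 0.187 in 18 (joined across pH by colony labels in doubt at pH 7.9) and 0.295 without the block. Falls outnumbered rises at pH 7.6 in all 13 alternatives that made calls. The share with the same sign at pH 7.9 was 92.2%, and 91.7% and 92.9% under other scalings. Named transcripts kept their sign in all 96 refits, of which 23 lost and 4 gained the call. Leaving out 1 of 3 colonies leaves 2 pairs, which limits these fits.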

Other observations

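In the pair labelled colony 1 at pH 7.9, 19 transcripts had at least 100 counts at week 8.5 and 0 at week 4.5, and 0 the reverse. In the other 5 pairs of these weeks, at both pH, these were 0 to 4 and 0 to 2. The week 4.5 library of colony 1 at pH 7.6 held 31.3% of its counts in its 100 most counted transcripts, against 24.8 to 27.9% in the other 5 libraries at pH 7.6 of these weeks.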
